A study of Drosophila melanogaster with 12 samples.

Results

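The CR genes are gene models that the fly annotation gave a CR number in place of a CG number because no protein was assigned to them. The 115 described here were selected on their level in control cells: rows named by a single CR symbol, on chromosome 2, 3 or X, with at least 1 FPKM in the GFP samples of the SAM-S table. FPKM relates fragments to transcript length and library size, which puts genes of different length on a common scale. Levels of genes that overlap may include each other's reads, as the strand of the libraries is not given. The members are 115 of 601 rows named by a single CR symbol and 115 of 14540 rows of that table. Of the 543 CR rows on these arms, 428 lay under the limit, and 241 of those were listed at 0 FPKM in the GFP samples. Because the control level chose the members, their levels and fold changes are given as descriptions, with no test of their own.

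The RNA came from Drosophila melanogaster S2 cells, a wild type embryonic line that resembles the macrophage-like blood cells called hemocytes, and was profiled by RNA-seq. The cells had taken up double-stranded RNA for 4 days, against Sin3A (SIN3 knockdown), Sam-S (SAM-S knockdown), Sin3A and Sam-S together (double knockdown), or GFP as the control, with 3 samples in each of the 4 groups. SIN3, the product of Sin3A, holds together a complex that removes acetyl groups from histones, and Sam-S encodes the enzyme that makes S-adenosylmethionine, the methyl donor of histone and RNA methylation. The authors pooled the samples of a group into 1 FPKM per gene, so no value has a spread between samples, the depth of the libraries is unknown, and it cannot be told whether the deposited p-values measure the spread between samples.

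Long non-coding RNAs are transcripts that are not known to be translated. Some act where they are made, by recruiting or displacing chromatin proteins or by the passage of RNA polymerase over a neighbouring gene; some are the primary transcripts from which microRNAs or snoRNAs are cut. Antisense RNAs lie on the strand opposite a protein-coding gene and share its DNA. In flies the best known long non-coding RNAs are roX1 and roX2, which carry the dosage compensation complex to the male X chromosome. For most CR genes no function is known, and none is given below where none is known.

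All 115 symbols were found in the current RefSeq annotation of the fly. RefSeq now classes 55 of them as long non-coding RNA, 55 as antisense RNA, 2 as protein-coding (CR43051 and CR43844), 1 as snRNA (CR43708, now snRNA:LU), 1 as a pseudogene (CR43727) and 1 as another non-coding RNA, the hairpin RNA CR32207. Hairpin RNAs of this kind are precursors of endogenous siRNAs. A protein-coding gene on the opposite strand overlaps 79 of the 115, 4 overlap one on the same strand and 32 overlap none. By arm, 29 lie on 3R, 27 on 3L, 25 on 2L, 20 on 2R and 14 on X.

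Sam-S was at 62.0 FPKM in SAM-S knockdown cells against 242 FPKM in GFP cells, and at 91.2 against 243 FPKM in the samples labelled double knockdown. In the samples labelled SIN3 knockdown it was called higher, at 484 against 240 FPKM (log2 fold change 1.01), and the authors' deposited table gives q = 0.00172. In the samples labelled SIN3 knockdown Sin3A was at 61.7 FPKM, against 67.9 FPKM in GFP cells, and at 64.7 against 68.5 FPKM for the samples labelled double knockdown. Sin3A was called in neither, so its mRNA level does not bear out the label of those 2 groups. Directions for them depend on the label being right. Of 10 hemocyte markers, 9 reached 1 FPKM in GFP cells, but none of 3 muscle or 3 germline markers did. The neuron marker elav stood at 3.23 FPKM in GFP cells, while Syt1, the other neuron marker with a row, stood at 0.0178 FPKM. Of 3 fat body and gut markers, the lipophorin gene Rfabg stood at 2.14 FPKM, and Lsp2 and Yp1 at 0.0941 and 0.0526 FPKM. The hemocyte markers moved with the groups: 5 of 10 were called lower in the samples labelled SIN3 knockdown, none after SAM-S knockdown and 5 in the samples labelled double knockdown. Over all tested rows 4.35%, 0.0754% and 6.14% were called lower, in the same order. Among the hemocyte markers the calls were not all of the same genes. Hml, Pxn, He and Nplp2 were called in both, vkg in the first alone and NimC1 in the double alone, and Rfabg was called lower in the same 2 tables. The summed level of the 10 hemocyte markers was 11461, 23319 and 11048 FPKM in the 3 knockdowns, against 26257, 26423 and 26577 FPKM in the GFP cells of the same tables, and most of it came from the neuropeptide-like gene Nplp2. The part of the hemocyte markers and Rfabg in the results for the CR genes was not tested, and in bulk samples fewer cells of a type and less RNA per cell cannot be told apart.

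In GFP cells the CR genes were mostly low. Their median was 6.62 FPKM, with quartiles at 3.20 and 16.7 FPKM, while 7124 other single-gene rows over the same limit had a median of 26.1 FPKM. Of the members, 49 lay under 5 FPKM, 41 between 5 and 20 FPKM and 25 at 20 FPKM or more. The 4 highest held 60.1% of the 3698 FPKM of all members, and all members together held 0.460% of the FPKM of the table.

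**Figure D1:**
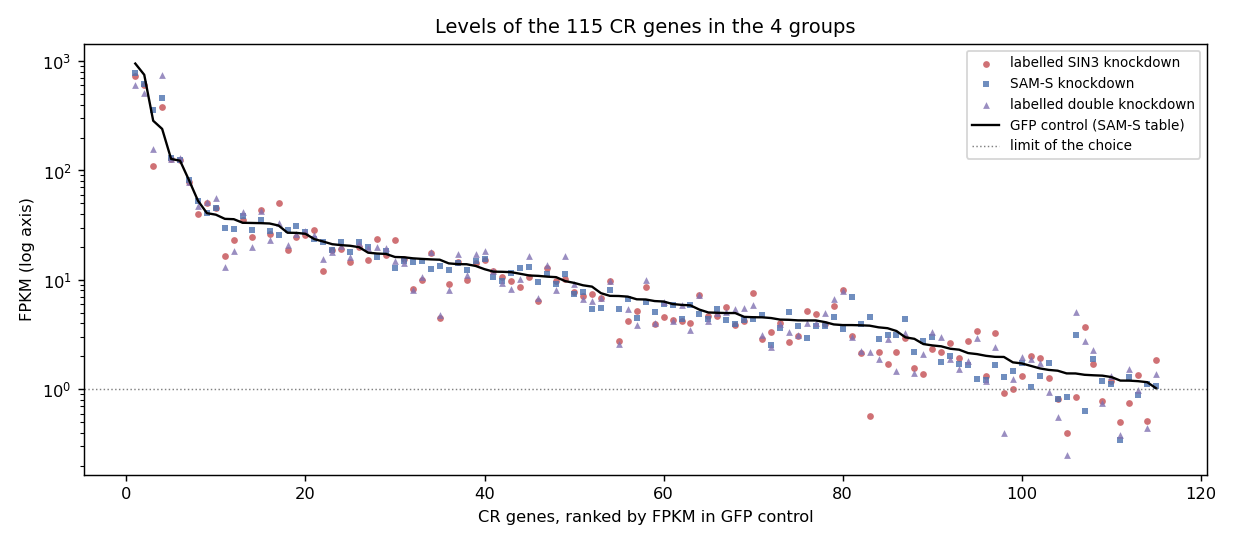
FPKM (log axis) of the 115 CR genes ranked by their GFP level; points are the 3 knockdown groups, the black line is the GFP control of the SAM-S table and the dotted line is the limit of 1 FPKM that chose the members. Levels run from 949 FPKM down to 1.02 FPKM in GFP cells, and the points scatter most widely about the line at low levels.

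The 2 highest members lie on X. CR34335 stood at 735, 776 and 606 FPKM with Sin3A dsRNA, Sam-S dsRNA and both (the groups labelled SIN3, SAM-S and double knockdown), against 944, 949 and 955 FPKM in the GFP cells of the same tables. CR40469, a short RNA of 214 bases with no overlapping gene in the table, stood at 605, 612 and 507 FPKM in the same order of knockdowns, against 745, 750 and 754 FPKM in GFP cells. Both were lower than the control in every knockdown and neither was called in any table: their log2 fold changes were -0.36, -0.29 and -0.66 for CR34335 and -0.30, -0.29 and -0.57 for CR40469. The GFP cells are the same samples in all 3 tables, so these values are not independent of each other.

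The next 2 members by level, CR43883 and CR43264, were both called and are described below. CR31144 is antisense to RpL3, a ribosomal protein gene, and stood at 127, 129 and 127 FPKM in the 3 knockdowns against 127, 127 and 128 FPKM in GFP cells. CR44114 is antisense to sau, a Golgi phosphoprotein gene needed for cytokinesis, and stood at 125, 125 and 129 FPKM against 122, 123 and 124 FPKM. These values lay within 0.07 of the control on the log2 scale. CR44060, opposite the ArfGAP-like gene drongo, had log2 fold changes of -0.04, 0.00 and -0.07 around 81.5 FPKM in GFP cells, and CR44049, opposite the zinc finger gene woc, had -0.38, -0.01 and -0.17 around 52.9 FPKM.

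At the lower end the choice by level cuts through a continuous range. Just inside the limit were CR43833 at 1.02 FPKM, CR42646 at 1.16 FPKM and CR43844 at 1.19 FPKM in GFP cells. Just outside were CR31451 and CR43704, both at 0.967 FPKM, and CR44150 at 0.899 FPKM. The 3 inside had log2 fold changes of 0.86, -1.16 and 0.20 in the SIN3 table and the 3 outside -0.35, -0.79 and -0.41.

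The first comparison asked which of these RNAs differ when SIN3 is targeted. A row was called where the authors tested it with Cuffdiff and its q in the authors' deposited table was under 0.05. For the samples labelled SIN3 knockdown, CR43264 and CR43730 rose and CR43883, CR43242, CR43417 and CR43481 fell, which makes 2 higher and 4 lower of 114 tested members. Over all 8123 tested rows, 3.34% were called higher and 4.35% lower; with the members chosen by the control level of the same contrast, nothing is read from the members' shares. Unadjusted p was under 0.05 for 11 members and 1466 rows in the authors' deposited table.

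In SAM-S knockdown cells CR43264 rose and no member fell, of 115 tested. The background was 0.088% called higher and 0.0754% called lower of 7957 tested rows. CR43264 was also the 1 member whose unadjusted p from Cuffdiff was under 0.05, among 223 such rows in the authors' deposited table. With both dsRNAs CR43264 rose and CR43883, CR43417, CR42839, CR43481 and CR42646 fell, so that 1 was called higher and 5 lower of 115 tested. The background there was 3.48% called higher and 6.14% called lower of 8158 tested rows. Unadjusted p from Cuffdiff was under 0.05 for 14 members and 1672 rows in the authors' deposited table. In all, 8 members were called in at least 1 table and 107 in none. The same share over all tested rows was not computed, so nothing is read from these counts. With q under 0.01 the calls left were those of CR43883 in the SIN3 and double tables and of CR43264 in the double table.

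**Figure D2:**
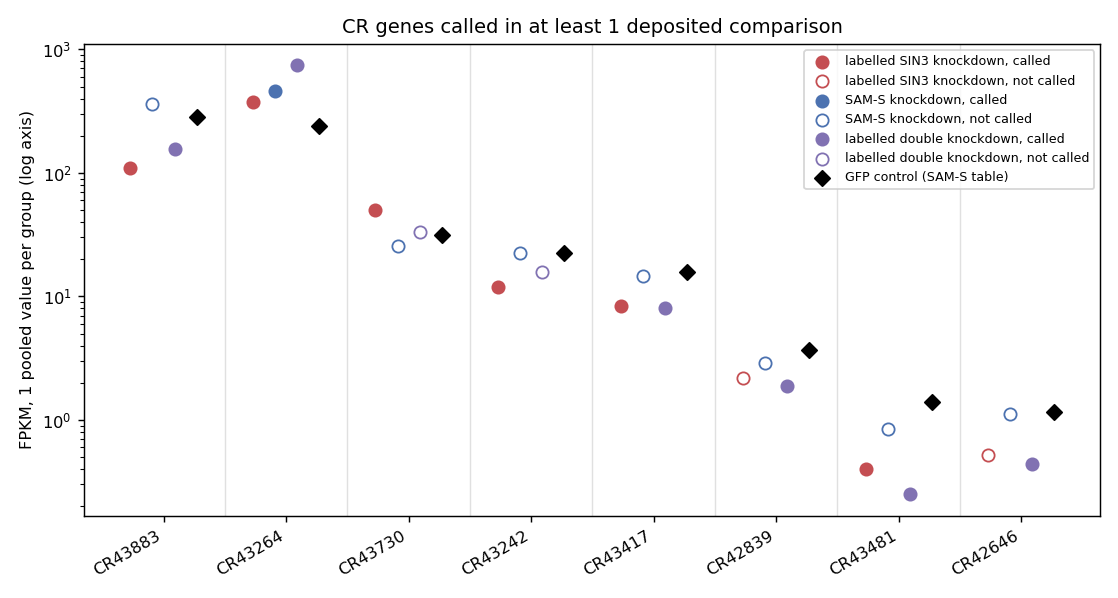
FPKM (log axis) of the 8 CR genes called in at least 1 table, ordered by GFP level; circles are the 3 knockdown groups, filled where called and open where not, and black diamonds are the GFP control. CR43264 lies above the diamond in every knockdown, up to 741 FPKM, while CR43883 lies below it in both groups that received Sin3A dsRNA and above it, at 359 FPKM, after SAM-S knockdown.

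CR43264 was the 1 member called in every table. It is a long non-coding RNA gene on X, in a stretch (5712592 to 5734856, build dm3) that the files give jointly to it and to CG15765, a gene on the opposite strand. Its level was 377 FPKM in the samples labelled SIN3 knockdown, 462 FPKM after SAM-S knockdown and 741 FPKM in the samples labelled double knockdown, against 238, 240 and 241 FPKM in the GFP cells of the same tables. The log2 fold changes were 0.66, 0.95 and 1.62, and the authors' deposited table gives q = 0.0341, 0.0306 and 0.00157. Every knockdown thus stood above the control, the double knockdown most, and its log2 fold change differed by 0.01 from the sum of the other two. No test of that difference could be made on pooled values that share a control.

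The opposite-strand gene CG15765 was close to 0. It stood at 0.0291, 0.0479 and 0.0180 FPKM in the 3 knockdowns against 0.0379 to 0.0385 FPKM in GFP cells, far under CR43264 in every group, and was called in no table.

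CR43883, a long non-coding RNA gene of 3L (820759 to 821514) that shares its locus with no other row, was the most abundant member that fell. It stood at 110 FPKM in the samples labelled SIN3 knockdown against 282 FPKM in GFP cells (log2 fold change -1.36), and the authors' deposited table gives q = 0.00172, its smallest value. The samples labelled double knockdown had 156 against 286 FPKM (-0.87), and the authors' deposited table gives q = 0.00157. SAM-S knockdown cells had 359 against 285 FPKM (0.33), and the gene was not called. The groups that received Sin3A dsRNA were both below the control, and the double knockdown was the less low of them.

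CR43481 had the largest fall among called members. The Ensembl annotation places it antisense to Hsp67Ba, a small heat shock protein gene, in the heat shock cluster of 3L. It has a deposited locus of its own (9373013 to 9374219). It stood at 0.402, 0.844 and 0.250 FPKM in the 3 knockdowns, against 1.38, 1.40 and 1.40 FPKM in GFP cells, all close to the limit of 1 FPKM. The log2 fold changes were -1.78, -0.73 and -2.49, of which the outer 2 were called, and the authors' deposited table gives q = 0.0295 and 0.0145. With 1 FPKM added to each value they were -0.77, -0.38 and -0.94. Its order over the groups (double lowest, then SIN3, then SAM-S, then GFP) was also that of its neighbours.

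Hsp67Ba itself stood at 0.410, 0.664 and 0.205 FPKM in the knockdowns, against 0.919 to 0.925 FPKM in GFP cells, with a log2 fold change of -2.17 for the double knockdown, where the authors' deposited table gives q = 0.0151. Hsp23, which lies beside it and encodes an abundant small chaperone, stood at 167, 257 and 74.6 FPKM against 427, 429 and 431 FPKM (-1.36, -0.74 and -2.53) and was called in all 3 tables. The log2 fold changes of Hsp26 were -1.08, -0.55 and -2.66, and those of Hsp67Bc, a further small heat shock gene of the cluster, were -0.33, -0.02 and -1.82. The deposited loci of CR43481 and Hsp67Ba do not overlap, and the overlap is that of the Ensembl annotation.

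CR43417, a long non-coding RNA gene of 2R opposite CG5550, fell in both groups that received Sin3A dsRNA. It stood at 8.29 and 8.03 FPKM in the samples labelled SIN3 and double knockdown against 15.6 and 15.8 FPKM in GFP cells, with log2 fold changes of -0.91 and -0.98, and the authors' deposited table gives q = 0.0374 and 0.0174. After SAM-S knockdown it stood at 14.7 against 15.7 FPKM (-0.10). Its partner CG5550 was at 1.25 and 0.678 FPKM in the samples labelled SIN3 and double knockdown, against 1.40 FPKM in the GFP cells of the SIN3 table, and was not called.

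CR43730 and CR43242 were called in the samples labelled SIN3 knockdown and not in the double. CR43730, antisense to the juvenile hormone-inducible gene JhI-26 on 2R, rose to 50.0 FPKM against 31.2 FPKM in GFP cells (0.68), and the authors' deposited table gives q = 0.0352. It stood at 25.7 FPKM after SAM-S knockdown and at 33.3 FPKM in the samples labelled double knockdown, against 31.4 and 31.6 FPKM in GFP cells (-0.29 and 0.08). JhI-26 was at 5.21, 2.36 and 3.47 FPKM in the 3 knockdowns against 2.98 FPKM in the GFP cells of the SIN3 table, uncalled, with log2 fold changes of 0.80, -0.34 and 0.21. CR43730 and JhI-26 thus had values of the same sign in each knockdown. The Ensembl annotation also places CG30100 and CG42372 on the strand opposite CR43730. Their merged row had log2 fold changes of -0.12, 0.12 and 0.14, opposite in sign to CR43730 in the SIN3 and SAM-S tables. The merged row with CG30099, a gene on the same strand, had 0.82, 0.11 and -0.19, and none of these rows was called.

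CR43242, a long non-coding RNA gene of 2L (22961737 to 22963456) with a locus of its own, fell to 12.0 FPKM in the samples labelled SIN3 knockdown against 22.3 FPKM in GFP cells (-0.90), and the authors' deposited table gives q = 0.0205. It stood at 22.3 FPKM after SAM-S knockdown and at 15.6 FPKM in the samples labelled double knockdown, against 22.4 and 22.5 FPKM in GFP cells (-0.01 and -0.53). Whether the SIN3 and double values of these 2 genes differ was not tested.

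CR42839 and CR42646, both with a locus of their own, were called in the double knockdown alone. CR42839 (3R, 11830043 to 11833795) stood at 1.88 FPKM against 3.70 FPKM in GFP cells (-0.98), and the authors' deposited table gives q = 0.0470. CR42646, on 2R, stood at 0.440 against 1.17 FPKM (-1.41), and the authors' deposited table gives q = 0.0440. In the samples labelled SIN3 knockdown the same genes had uncalled log2 fold changes of -0.73 and -1.16, and after SAM-S knockdown -0.35 and -0.06. Their values in both groups that received Sin3A dsRNA lay under the control, and both genes are in the range of 1 to 5 FPKM. With 1 FPKM added to each value the log2 fold changes for the double knockdown were -0.71 and -0.59.

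**Figure D3:**
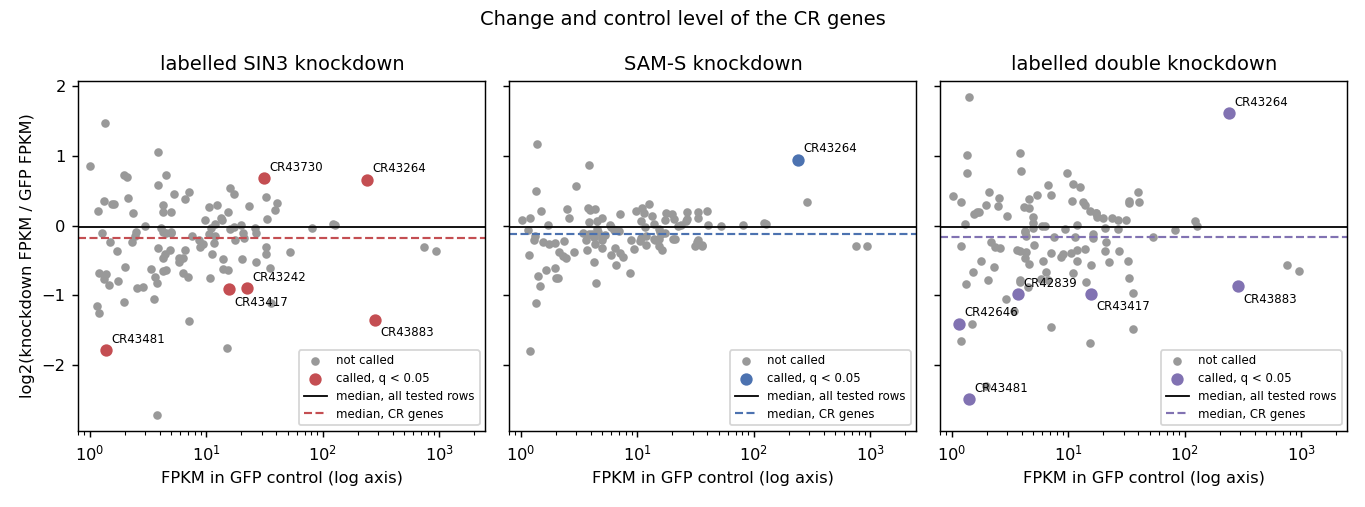
Log2 fold change of the 115 CR genes against their GFP level (log axis) in each table; coloured points were called, the dashed line is the members' median and the solid line the median of all tested rows. The members' medians of -0.18, -0.13 and -0.16 lie under those of all tested rows at -0.01, -0.02 and -0.01. Among members over 100 FPKM, CR43264 is the highest in each panel. CR43883 is the lowest of them in the SIN3 and double panels, at -1.36 and -0.87.

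Taken as a list, the CR genes had more values under than over the control. The median log2 fold change was -0.18 in the samples labelled SIN3 knockdown, -0.13 after SAM-S knockdown and -0.16 in the samples labelled double knockdown, beside -0.01, -0.02 and -0.01 over all tested rows. Values were negative for 77, 73 and 70 of 115 members, that is 67.0%, 63.5% and 60.9%, beside 51.7%, 54.8% and 51.7% of all tested rows. Other rows of low level were also mostly negative: at 1 to 5 FPKM the other single-gene rows had medians of -0.25, -0.07 and -0.28 with 66.0%, 59.2% and 67.6% negative, and the 49 CR genes of that range -0.24, -0.20 and -0.24 with 67.3%, 69.4% and 57.1%. At 5 to 20 FPKM the 41 CR genes had medians of -0.15, -0.11 and -0.16 with 68.3%, 68.3% and 63.4% negative. The other single-gene rows of that range had 0.02, -0.02 and -0.00 with 48.3%, 55.4% and 50.2%. At 20 FPKM or more, 64.0%, 44.0% and 64.0% of the CR genes were negative, against 48.8%, 53.5% and 47.5% of the other rows. The control value that chose the members is also the denominator of these fold changes; with the limit set on the mean of the 4 groups the medians were -0.15, -0.11 and -0.09.

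The median absolute log2 fold change of the members was 0.38, 0.21 and 0.38 in the 3 tables, against 0.23, 0.12 and 0.27 over all tested rows. A change of at least 1 on the log2 scale was seen in 12, 3 and 14 members, that is 10.4%, 2.61% and 12.2%, beside 6.83%, 1.17% and 7.29% of all tested rows. Rows of low level spread more in general, and within 1 to 5 FPKM the members did not spread more in every table. The median absolute value there was 0.59, 0.24 and 0.43 for the 49 CR genes, against 0.46, 0.22 and 0.49 for the other single-gene rows. Changes of at least 1 were seen in 16.3%, 6.12% and 20.4% of these CR genes, against 18.2%, 3.13% and 18.6% of the other rows. At 5 to 20 FPKM the median absolute values were 0.31, 0.18 and 0.39 against 0.28, 0.12 and 0.31. At 20 FPKM or more they were 0.32, 0.19 and 0.36 against 0.18, 0.10 and 0.22. Changes of at least 1 were seen in 4.88%, 0.0% and 4.88% of the CR genes at 5 to 20 FPKM, against 7.57%, 0.826% and 8.46%. At 20 FPKM or more the shares were 8.0%, 0.0% and 8.0%, against 2.01%, 0.357% and 2.54%.

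Medians differed by whether another row lies at the locus. The locus column gives 1 interval to all genes that overlap, so 84 members share theirs with at least 1 other row and 31 have their own. The 31 with their own locus span 214 to 6454 bases, with a median of 756. Their median log2 fold change was -0.59 in the samples labelled SIN3 knockdown, -0.21 after SAM-S knockdown and -0.56 in the samples labelled double knockdown, with 26, 23 and 24 negative values. The 84 that share a locus had medians of -0.11, -0.12 and -0.04. With 1 FPKM added to each value the medians of the 31 were -0.38, -0.14 and -0.48.

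**Figure D4:**
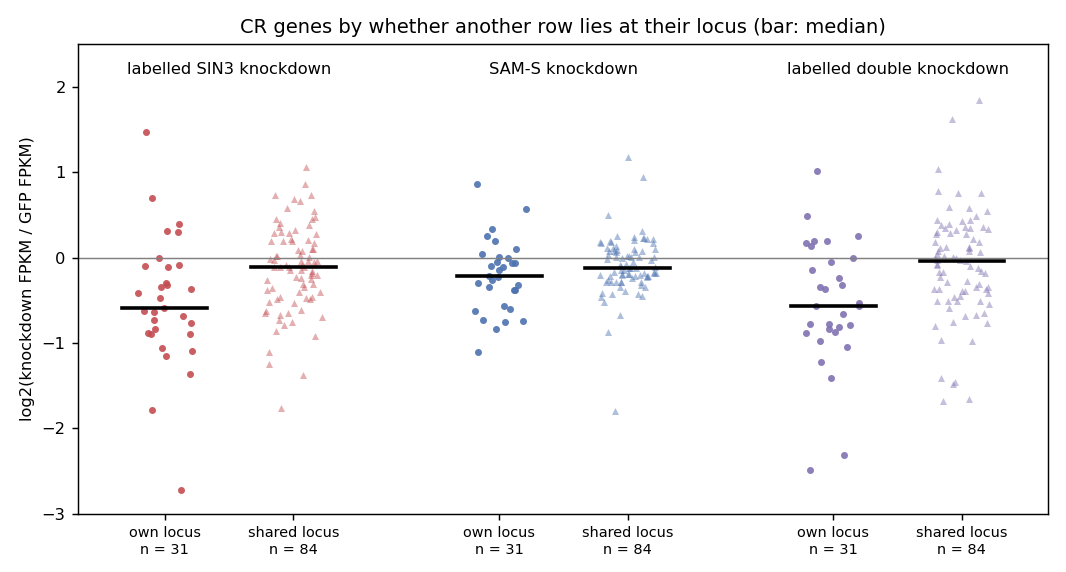
Log2 fold change of CR genes with a locus of their own (circles, n = 31) and of those that share it with another row (triangles, n = 84), per table; black bars are medians. The bars of the first class lie at -0.59, -0.21 and -0.56 and those of the second at -0.11, -0.12 and -0.04, and the points of the classes overlap in every table.

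The same split of all other single-gene rows gave medians close to each other: -0.02 in all 3 tables for those with a locus of their own, and 0.02, -0.01 and 0.01 for those that share one. At low level, however, the other rows were split in the same direction as the CR genes, as the values for 1 to 5 FPKM show. The classes also differed in level: the CR genes with their own locus were at a median of 3.62 FPKM in GFP cells against 10.6 FPKM for the rest. Within 1 to 5 FPKM, the 23 CR genes with their own locus had a median of -0.59 in the samples labelled SIN3 knockdown and the 26 with a shared locus -0.10, and the other rows -0.32 with their own locus (n = 471) and -0.15 with a shared one (n = 453). After SAM-S knockdown the CR genes had -0.23 and -0.17 and the other rows -0.09 and -0.05, in the same order of classes. For the double knockdown the CR genes had -0.37 and 0.03 and the other rows -0.33 and -0.22. With the limit set on the mean of the 4 groups, the medians of 32 CR genes with their own locus were -0.44, -0.13 and -0.36. These are descriptions of classes within a list chosen by level, with no test.

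RefSeq type followed the same division in part. The 55 members classed as long non-coding RNA had medians of -0.42, -0.19 and -0.37, and the 55 classed as antisense RNA -0.11, -0.02 and 0.02. The 32 members that overlap no protein-coding gene had medians of -0.44, -0.17 and -0.45. By arm, the 20 members of 2R had the lowest median, -0.48 in the samples labelled SIN3 knockdown and -0.59 in the double, and the 25 of 2L the highest, 0.03 and 0.18.

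The antisense members can be set beside the genes they oppose. Of the 79 with a protein-coding gene on the opposite strand, 72 have a partner with a row of its own. Partner and member share libraries and, without strand, possibly reads. Over these 72 pairs the log2 fold changes had a Pearson r of 0.29, -0.14 and 0.24 and a Spearman rho of 0.34, 0.17 and 0.38 in the 3 tables. The 2 measures differ in sign in the SAM-S table, where the pair of CR43967 and CG34031, picked out after its values were seen, stood at -1.80 and 1.11. Signs were alike in 48, 44 and 51 of the 72 pairs.

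**Figure D5:**
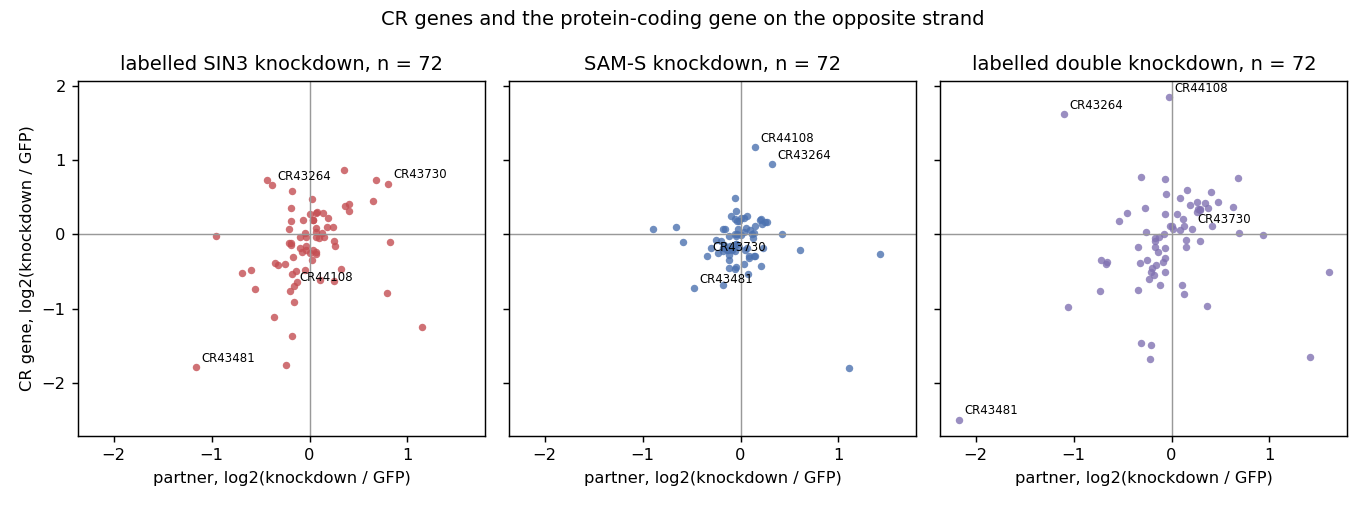
Log2 fold change of 72 antisense CR genes (vertical axis) against that of the protein-coding gene on the opposite strand (horizontal axis), per table. CR43481 and Hsp67Ba lie together at the lower left in the double knockdown (-2.49 and -2.17), whereas CR43264 lies at 1.62 over a partner at -1.10 that is close to 0 FPKM.

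Of the 72 opposed genes, 1 was called in the SIN3 table, none after SAM-S knockdown and 2 in the double table. Over all tested rows the shares called higher and lower were 3.34% and 4.35% in the SIN3 table, 0.088% and 0.0754% in the SAM-S table, and 3.48% and 6.14% in the double table. In the samples labelled SIN3 knockdown 1 partner was called higher, CG43367 at 24.1 against 15.4 FPKM (0.65), and its antisense RNA CR32252 stood at 7.29 FPKM with an uncalled 0.45. With both dsRNAs Ip6k, an inositol hexakisphosphate kinase gene, was called higher at 32.5 against 20.3 FPKM (0.68), beside an uncalled 0.76 for CR43786, and Hsp67Ba was called lower. In 48 of the 72 pairs the partner had the higher GFP level.

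Several members lie opposite genes of interest to this design. CR30055 overlaps Sin3A on the other strand and stood at 14.5, 18.0 and 16.0 FPKM in the 3 knockdowns, against 20.4, 20.5 and 20.6 FPKM in GFP cells (-0.49, -0.19 and -0.36, uncalled). CR44108 lies opposite Shmt, serine hydroxymethyltransferase, which feeds one-carbon units to the folate cycle. It stood at 0.853, 3.15 and 5.04 FPKM against 1.39, 1.39 and 1.40 FPKM, with log2 fold changes of -0.70, 1.18 and 1.85; the authors did not test it in the SIN3 table and it was called in neither of the others. For CR44108 the authors' deposited table gives q = 0.9999 and 0.767 in the SAM-S and double tables. Shmt itself stood at 51.9, 64.4 and 57.3 FPKM against 57.8 to 58.4 FPKM (-0.15, 0.15 and -0.03). The log2 fold changes of CR44108 covered a wider range than those of Shmt, but at a far lower level, where values scatter most. Whether the 2 genes differ was not tested.

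The pyrimidine synthesis gene Ctps is overlapped by 2 members, with values on either side of the control. CR43971 stood at 2.74, 5.41 and 2.61 FPKM in the 3 knockdowns against 7.10, 7.12 and 7.16 FPKM in GFP cells (-1.37, -0.40 and -1.46). CR43973 stood at 5.83, 4.58 and 6.75 FPKM against 3.89, 3.92 and 3.94 FPKM (0.58, 0.23 and 0.78). Neither was called in any table, and Ctps itself had -0.18, 0.04 and -0.31.

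The 4 hosts of small RNAs were called in no table. Over all tested rows 3.34%, 0.088% and 3.48% were called higher and 4.35%, 0.0754% and 6.14% lower. Nothing is therefore read from 4 uncalled genes. CR43334, from which the growth-promoting microRNA bantam is cut, had log2 fold changes of -0.09, 0.10 and -0.03 around 5.03 FPKM. CR43459, host of the clustered mir-277 and mir-34, had -0.09, -0.26 and -0.15 around 4.34 FPKM. CR31044, host of mir-279 and mir-996, had 0.30, -0.63 and 0.19 around 1.64 FPKM, and CR43051, host of a snoRNA, -0.04, -0.13 and 0.27 around 4.11 FPKM. The hairpin RNA CR32207 had -0.00, 0.57 and 0.14 around 2.98 FPKM, also uncalled.

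Fold changes of uncalled members overlapped those of called ones. The lowest value of any member in the SIN3 table was the uncalled -2.72 of CR43765, at 0.572 FPKM against 3.78 FPKM in GFP cells, and the authors' deposited table gives q = 0.0827. In the double table the uncalled CR44078 was second to CR43481, with -2.31 at 0.401 against 1.98 FPKM, and the authors' deposited table gives q = 0.0501. Both have a locus of their own and were picked out after their values were seen. Among members of higher level, CR43256, opposite gus, a SOCS-box gene that acts in the germline, stood at 4.48, 13.4 and 4.80 FPKM in the 3 knockdowns against 15.2, 15.3 and 15.4 FPKM in GFP cells (-1.76, -0.19 and -1.68), and the authors' deposited table gives q = 0.761 and 0.727 for the SIN3 and double tables. CR43855, opposite the axon guidance gene Sema1a, stood at 16.6, 29.6 and 13.0 FPKM against 35.8, 36.1 and 36.3 FPKM (-1.11, -0.29 and -1.48). CR32218, on the strand of Mi-2 and Su(Tpl), stood at 8.01, 3.54 and 7.98 FPKM against 3.84, 3.86 and 3.89 FPKM (1.06, -0.13 and 1.04). CR43256, CR43855 and CR32218 share a locus with other rows and were called in no table. For CR32218 the authors' deposited table gives q = 0.975 and 0.910 in the SIN3 and double tables. These genes were named for large changes in both groups that received Sin3A dsRNA, so nothing is read from the likeness of those groups. CR43877, antisense to Arv1, had 0.73, -0.05 and 0.38, and Arv1 0.68, 0.13 and 0.63.

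After SAM-S knockdown the largest uncalled log2 fold changes among members of at least 5 FPKM in the higher and 0.5 FPKM in the lower condition were 0.86 for CR43785 (7.03 against 3.86 FPKM), 0.33 for CR43883 (above) and 0.31 for CR44045, opposite Axn, on the upper side. On the lower side they were -0.68 for CR44124 (5.42 against 8.68 FPKM), -0.57 for CR43301, -0.45 for CR43918, opposite the E2F partner gene Dp, and -0.43 for CR43461. For each of them the authors' deposited table gives q = 0.9999.

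In some members the double knockdown lay away from the sum of the single ones, which all share the GFP cells. Among members of at least 5 FPKM in the higher and 0.5 FPKM in the lower condition, CR44108 (above) stood 1.37 over that sum, CR43461 0.89 and CR43868, opposite CG10638, 0.78. CR43785 stood 0.92 under it, with log2 fold changes of -0.32, 0.86 and -0.37, CR43708 0.32 under and CR43730 0.31 under. Members outside these FPKM limits also departed from it: CR43765 (above) stood 1.65 over the sum, with -2.72, 0.26 and -0.81, and CR43967 1.40 over it, while CR43964 departed by -0.66 and CR44078 by -0.61. Over all 115 members the departure had a median of 0.08 with quartiles at -0.05 and 0.32, and it was beyond 0.5 upward in 16 and downward in 4. The GFP value, which chose the members, enters the departure with a plus sign, and the departure over all other rows was not computed. Nothing is therefore read from the upward and downward counts. None of these departures was tested.

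Lists of other non-coding and RNA decay genes give the setting. Of 15 named non-coding genes with a row, roX2 fell in the samples labelled SIN3 knockdown, at 47.6 against 81.5 FPKM (-0.78), and in the double at 49.1 against 82.5 FPKM (-0.75), and the authors' deposited table gives q = 0.0417 and 0.0306. None was called after SAM-S knockdown. The stress-responsive nuclear RNA Hsromega had log2 fold changes of -0.03, -0.04 and -0.33. The 8 snoRNA host genes had medians of 0.20, 0.31 and 0.49, beside -0.01, -0.02 and -0.01 over all tested rows, and 2 of them rose in the double knockdown, the merged row of Uhg2 (0.90) and Uhg4 (0.93). The values taken for Uhg6 are those of a merged row of Nop60B and snoRNAs, and Uhg7 shares a merged row with RpL23A. Both rows thus include a protein-coding gene. Of 31 RNA decay genes, none was called in the SIN3 or SAM-S table, and the exosome subunit gene Rrp4 rose in the double knockdown, at 37.2 against 16.8 FPKM (1.15), and the authors' deposited table gives q = 0.00157. The medians of the decay list were -0.01, 0.17 and 0.10. Beside the calls of these lists, 3.34%, 0.088% and 3.48% of all tested rows were called higher in the 3 comparisons. Called lower were 4.35%, 0.0754% and 6.14%.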

How the data were processed

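RNA-seq was done on 4 groups of 3 S2 cell samples; bcl2fastq and Cuffdiff on build dm3 are named in the submitters' processing notes, with no versions. Replicates were combined within a group, per the labels. For aligner, annotation, strand and filters: not given in the sources used here. Each of the 3 deposited tables holds, per the file headers, an FPKM per gene row for GFP and for 1 knockdown, and the authors' p-value and q-value. The deposited log2 fold change and the authors' test statistic (a score) were not used. Log2 fold changes were recomputed from the FPKM with no pseudocount.

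Tables were read with pandas 2.3.3 and Python 3.11.15, and the calling code was tested on simulated data. A call is a tested row with deposited q under 0.05. Members and gene lists were chosen with earlier results of these data known. GFP values of the same member differ between tables by close to a common factor, with SIN3 to SAM-S table ratios of 0.987 to 0.998. The partner gene bun departs from it, with a GFP value of 294 FPKM in the SIN3 table against 239 and 240 FPKM in the SAM-S and double tables. Starts count from 0 in the files, so 1 was added to each dm3 start. Classes and strands come from RefSeq Release 6 and Ensembl release 115, matched by symbol. Genes named are CR43264, called members, the 8 highest members, up to 4 of the largest changes per direction and table with at least 5 FPKM in the higher and 0.5 FPKM in the lower condition, the 3 members nearest to each side of the limit, per direction the 3 members within the same FPKM limits whose double value departs most from the summed single values, called genes of the lists (up to 4 per direction, list and table), both targets and the partners of called members; the largest changes outside those limits, small RNA hosts and members opposite genes of the design were added after their values were seen. Promoter sequence was not used here. Alternatives were other limits on level, q, p adjustment, pseudocount, centring and row types.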

Additional observations from a re-analysis of the deposited data

Results flagged for a closer look

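Calls were also seen in CR rows outside the chosen set. CR43957, on chromosome 4, fell in the samples labelled SIN3 knockdown, at 33.8 against 88.0 FPKM in GFP cells (log2 fold change -1.38); the authors' deposited table gives q = 0.00172. The samples labelled double knockdown had 30.1 against 89.3 FPKM (-1.57); the authors' deposited table gives q = 0.00157. Rows of the heterochromatic scaffold of X also fell in the samples labelled SIN3 knockdown: CR40677 at 210 against 318 FPKM (-0.60) and CR41602 at 346 against 553 FPKM (-0.68); the authors' deposited table gives q = 0.0232 and 0.0295. CR43651, on 2R and under the limit in GFP cells, rose in the double knockdown, at 2.04 against 0.733 FPKM (1.48); the authors' deposited table gives q = 0.0408. The merged row of CR42491 and the ribosomal protein gene RpL22 fell in the double knockdown, at 482 against 756 FPKM (-0.65); the authors' deposited table gives q = 0.0126. Each is a call in data that the comparisons above do not use.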

How the results depend on the processing

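With q under 0.01, members called were 0 higher and 1 lower in the SIN3 table, 0 higher in the SAM-S table and 1 lower in the double table. Leaving out the 84 members whose locus overlaps another row gave 0 called higher in each table and medians of -0.59 and -0.56 in the SIN3 and double tables. Including chromosome 4 and the scaffolds gave 7 lower in the SIN3 table. For the double knockdown, calls higher were 2 with a GFP limit of 0.5 FPKM, with none, or with the limit on the mean of the 4 groups, and lower calls were 2 with a limit of 5 FPKM and 3 with the limit on the mean. No value reversed, and 78 of 93 alternative values of the main counts and medians kept their result. A p adjustment over tested rows, centring and log2(FPKM + 1) moved none of them beyond the margin of 0.1 (log2) for medians or 1.5 times for counts. With log2(FPKM + 1), 21 of the 93 values of single members moved by more. No paired analysis was possible because the files hold 1 pooled value per group; for the same reason no replicate could be left out. Depth is unknown, so the precision of members under 5 FPKM cannot be given.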
